A study of Mus musculus with 2 samples.

Results

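The genes described here are 43 components of transforming growth factor beta (TGF-β) and bone morphogenetic protein (BMP) signalling. They were listed by name and by role in the pathway, from ligands to target genes. The list used no measured value as a criterion, but it was drawn up with earlier results of these data known. All 43 were among the 46095 genes counted, and 39 of them had the 10 or more reads, summed over both libraries, that were asked of a gene before it was tested. Bmp2, Bmp7 and Bmpr1b had 0 reads in both libraries, and Bmp6 had 0 and 2. The RNA came from C3H10 cells, a mouse embryonic mesenchymal line that can be driven into several connective tissue lineages, labelled as fibroblast precursors with adipogenic ability of the C57BL/6 strain. Both groups were transfected with an antisense oligonucleotide (ASO) at 100 nM and differentiated into adipocytes with IBMX, dexamethasone, troglitazone and insulin followed by insulin alone, and RNA was taken at day 6. The control cells received a negative control ASO and the MALAT1-knockdown cells an ASO against the long noncoding RNA MALAT1. Which ASO against MALAT1 was sequenced is not stated.

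TGF-β family ligands are secreted dimers. TGF-β itself leaves the cell in a latent complex that is tethered to the matrix by latent TGF-β binding proteins, whereas BMPs are held in check by antagonists such as gremlin and noggin. An active ligand brings type I and type II serine/threonine kinase receptors together, and the type I receptor phosphorylates receptor-activated Smads. Smad2 and Smad3 carry the TGF-β and activin signal, and Smad1, Smad5 and Smad9 carry the BMP signal. Both kinds pair with Smad4 and move into the nucleus. The inhibitory Smads, Smad6 and Smad7, are made in response and feed back on the receptors. In mesenchymal precursors TGF-β and activin are known to restrain adipocyte formation, while BMP4 is known for committing precursors to the adipocyte lineage.

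Each group was 1 library, so no difference below has a replicate check. The control library held 58147539 gene counts and the knockdown library 61653549. Every gene with enough reads, 17356 in all, was tested by asking with an exact binomial test whether its reads split between the libraries as their scaled sizes would, and p-values were adjusted over all of them (Benjamini-Hochberg). The test allows for counting error alone, which is small at this depth, and it compares the libraries and not the conditions. Values in brackets after a log2 fold change (knockdown minus control) are 95% intervals that cover counting error only. Malat1 itself had 170402 counts in the control library and 45396 in the knockdown library, which left 24.7% of the control level.

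The adipocyte and progenitor markers differed between the same libraries. All 18 tested adipocyte markers lay below 0. At 1.5-fold and an adjusted p under 0.05, 15 of them were lower (83.3%), beside 7.45% of all tested genes. Their summed level went from 11986 to 5013 CPM (counts scaled to a common library size). Of 13 tested mesenchymal progenitor markers, 10 passed the test as higher (76.9%) and 1 as lower (7.69%) without a fold threshold. The shares among all tested genes were 24.6% and 24.1%, and among those with a mean of at least 1000 counts 35.3% and 30.2%. At 1.5-fold 1 of these markers was higher (7.69%, Cd34 on 19 and 69 reads), beside 4.68% of all tested genes. The median log2 fold change of the progenitor markers was 0.21, and their summed level was 16017 and 18023 CPM. Dlk1, a defining preadipocyte marker, was at 0 in both libraries. Markers of endothelium (summed level 1.20 and 1.46 CPM), macrophages (9.31 and 10.8 CPM, with Ptprc and Adgre1 at 0) and epithelium (0.918 and 1.08 CPM, with Epcam at 0) were low. The osteoblast and chondrocyte markers that could be tested, 4 in all, had a median log2 fold change of 0.64 and a summed level of 154 and 211 CPM, and the 5 tested smooth muscle markers a median of -0.62 and a summed level of 238 and 267 CPM. In a bulk sample, fewer cells of a type cannot be told apart from less RNA of a gene per cell, and the part of these marker differences in the results below was not tested. Low values in this table also need care, since the smooth muscle genes Tagln and Cnn1 had 35 and 23 reads and 0 and 0 reads beside 13163 and 16191 for Acta2.

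Most of the pathway lay slightly higher in the MALAT1-knockdown cells. Of the 39 tested members, 29 had a log2 fold change above 0 and 10 below. Their median was 0.17 (quartiles -0.0065 to 0.33), against -0.0031 (quartiles -0.23 to 0.18) for all tested genes. Counting every adjusted p under 0.05 whatever the fold, a count added after the data were seen, 24 members were higher (61.5%) where 24.6% of all tested genes were, and 6 were lower (15.4%) where 24.1% of all tested genes were. Abundant genes pass such a test more easily. Among the 23 members with a mean of at least 1000 counts, 16 were higher (69.6%) and 3 lower (13.0%), and among all genes that abundant the shares were 35.3% and 30.2%. The median over these members was 0.11, against 0.013 for all such genes. With counts divided by 4, 15 members were higher and 3 lower. An edgeR exact test that presets a coefficient of variation of 0.1 between cultures called 1 higher and 1 lower, and none in either direction at 0.2. For these settings the share of all tested genes was not counted without a fold threshold.

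Large differences were few. At a fold of at least 1.5, 2 members were higher, Grem1 and Inhba, beside a background of 4.68% of all tested genes, and 2 were lower, Gdf5 and Nog, beside 7.45%. At a fold of at least 2, no member was higher, beside 2.45% of all tested genes, and Gdf5 and Nog were lower, beside 4.24%. The members' shares at these thresholds are thus near the background. With the preset variation of 0.1, 2 of 39 members were called at 1.5-fold, beside 1079 of all 17356 tested genes. These members were Gdf5 (edgeR exact test, adjusted p = 1.8e-05) and Grem1 (adjusted p = 0.0146). With 0.2 no member was called, beside 117 of all tested genes, and Gdf5 had an adjusted p of 0.143. At 0.2 an unadjusted p under 0.05 was reached by Gdf5 and Nog.

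**Figure D1:**
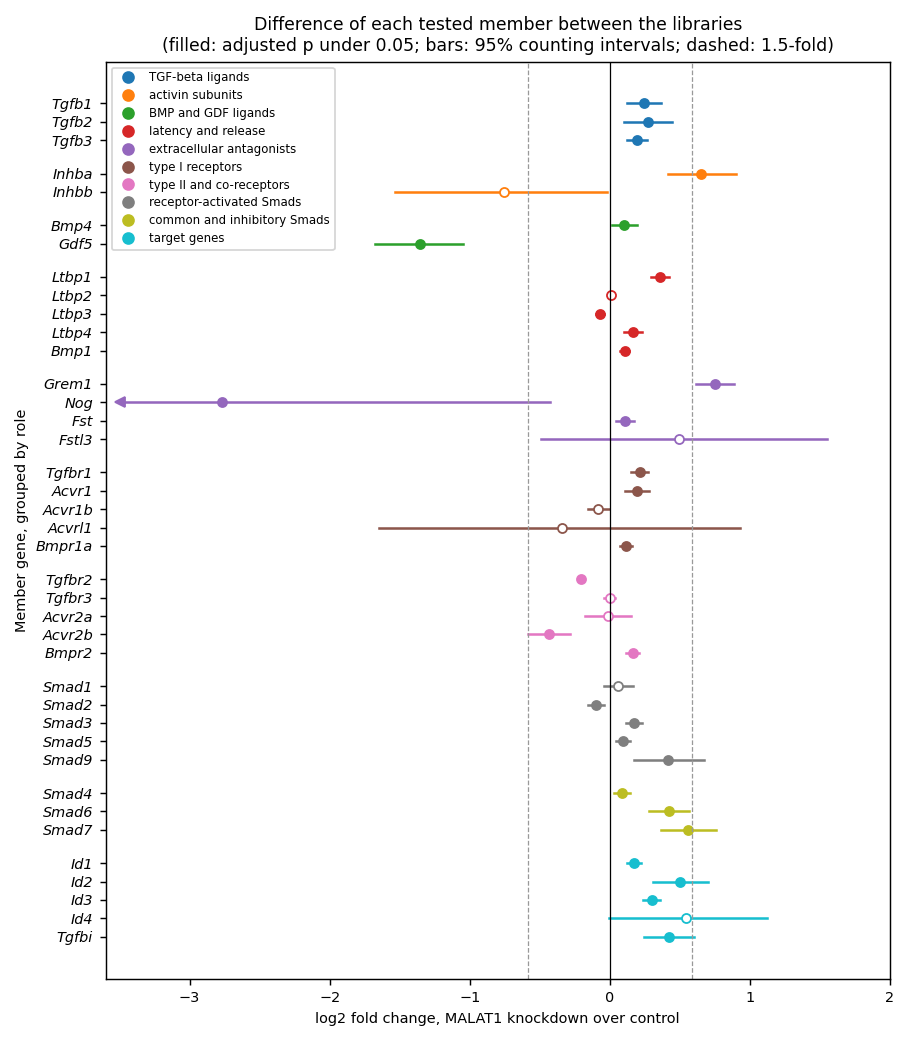
Log2 fold change (MALAT1 knockdown minus control) of the 39 tested members, ordered by role in the pathway, with 95% counting intervals (bars) that do not include variation between cultures, filled points for an adjusted p under 0.05 and dashed lines at 1.5-fold. The arrow at Nog marks an interval that runs off the axis. Grem1 (0.75) and Inhba (0.65) are the highest called at 1.5-fold, Gdf5 (-1.35) and Nog lie lowest, and most other members sit slightly to the right of 0.

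The 3 TGF-β ligands, which share receptors, were all higher by a similar amount. Tgfb1 had 1005 reads in the control library and 1280 in the knockdown library, a log2 fold change of 0.24 (0.12 to 0.36). Tgfb2 had 503 and 654, a log2 fold change of 0.27 (0.10 to 0.44). Tgfb3 had 2917 and 3587, a log2 fold change of 0.19 (0.12 to 0.26). The intervals overlap one another. Per kilobase of transcript Tgfb3 was the main ligand, at 14.9 and 17.1 RPKM (CPM divided by the transcript length in kilobases), above Tgfb1 at 8.01 and 9.47 RPKM and Tgfb2 at 1.70 and 2.06 RPKM. The mix hardly moved, with Tgfb3 at 60.6% of the ligand reads per kilobase in the control cells and 59.7% in the knockdown cells.

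Inhba encodes the βA subunit that forms activin A, an inhibitor of adipocyte differentiation made by adipose progenitors. It had 221 reads in the control cells and 375 in the MALAT1-knockdown cells, or 3.83 and 6.04 CPM. Its log2 fold change was 0.65 (0.41 to 0.90, exact binomial test, adjusted p = 2.93e-07). The gene lies at chr13:16011851-16031621 on the plus strand (GRCm38) and no other annotated gene overlapped its exons. Inhbb, the βB subunit, had 41 and 26 reads, and its log2 fold change of -0.75 (-1.53 to -0.020) did not pass the test after adjustment (adjusted p = 0.0723). Inha, which is no member, encodes the α subunit that turns a β subunit into inhibin, and it had 1326 and 1075 reads. Per kilobase, the Inha to Inhba ratio went from 26.0 to 12.4, a log2 change of -1.06 (-1.33 to -0.80), in a pair chosen after its values were seen.

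Only 2 of the 5 listed BMP and GDF ligands could be tested. Bmp4 had 1795 and 2078 reads, a log2 fold change of 0.10 (0.013 to 0.20) with an adjusted p of 0.04998 in the exact binomial test, just inside the threshold. Gdf5, a BMP family ligand best known for joint formation, was the called ligand among the members that moved most. It had 288 reads in the control cells and 121 in the knockdown cells, or 4.99 and 1.95 CPM, a log2 fold change of -1.35 (-1.68 to -1.05, adjusted p = 9.81e-19), which left 39.1% of the control level. Relative to Bmp4, per kilobase, Gdf5 went from 0.143 to 0.0518, in a pair that was not planned. The gene lies at chr2:155941023-155945367 on the minus strand (GRCm38), and 40.3% of its exonic bases lie opposite an annotated antisense gene, Gm15557. Whether the counting used strand is not given in the sources used here, so reads of the antisense gene cannot be told apart from those of Gdf5. The annotated neighbours Uqcc1 and Cep250 had log2 fold changes of -0.57 and 0.077.

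**Figure D2:**
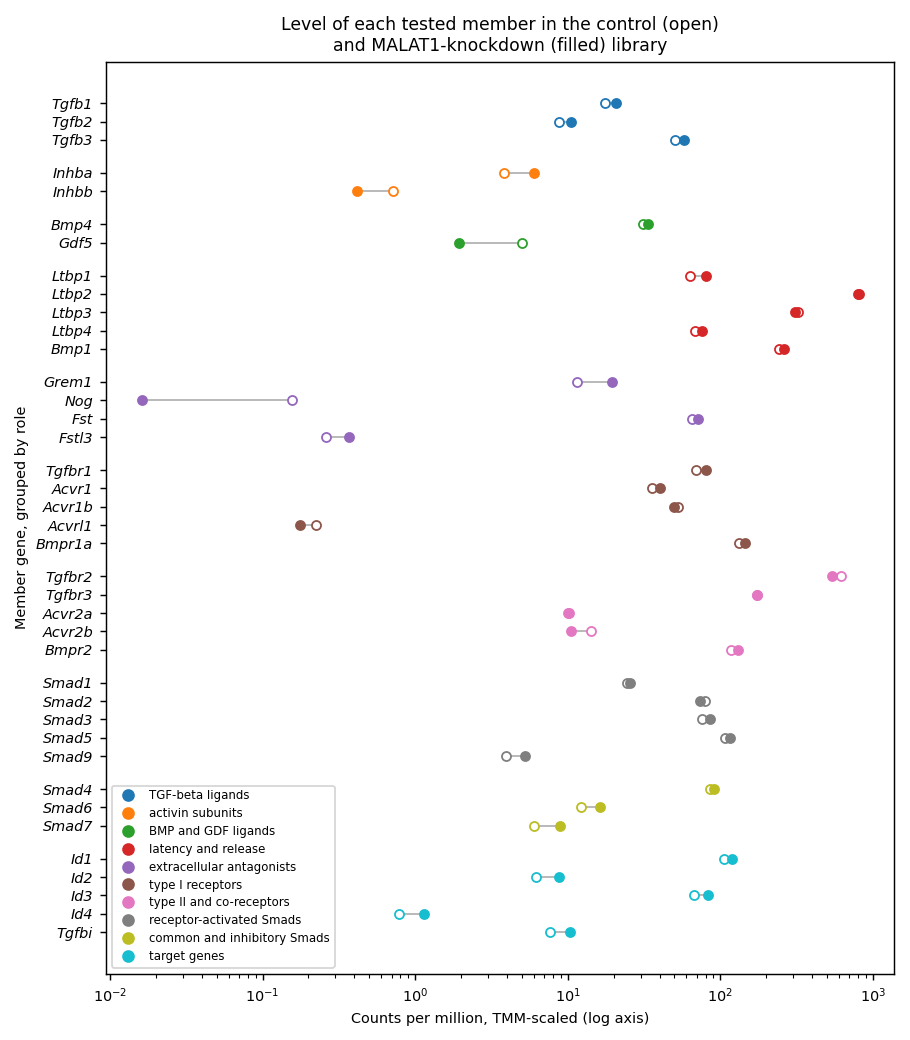
Level of each tested member in the control library (open) and the MALAT1-knockdown library (filled), in CPM on a log axis and not divided by transcript length, with members grouped and coloured by role. For most members the points nearly coincide, and of the members called at 1.5-fold Gdf5 (4.99 and 1.95 CPM) and Nog have the filled point to the left, and Inhba (3.83 and 6.04 CPM) and Grem1 (11.5 and 19.4 CPM) have it to the right.

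The latent TGF-β binding proteins, which store TGF-β in the matrix, did not move together. Ltbp1 had 3651 and 5039 reads, a log2 fold change of 0.36 (0.30 to 0.42). Ltbp4 had 3911 and 4727, a log2 fold change of 0.17 (0.11 to 0.23). Ltbp3 went the other way, with 18665 and 19115 reads and a log2 fold change of -0.072 (-0.10 to -0.043). Ltbp2, whose family membership rests on structure and which does not hold latent TGF-β, was the most abundant member by reads. It had 46241 and 50002, and its log2 fold change of 0.0063 (-0.012 to 0.025) did not pass the test. Per kilobase the share of Ltbp1 in the family went from 4.68% to 5.95% and that of Ltbp3 from 30.7% to 29.0%. Bmp1, a protease that processes procollagen and cleaves latent TGF-β binding protein and the BMP antagonist chordin, had 14003 and 16221 reads, a log2 fold change of 0.11 (0.073 to 0.14).

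Among the extracellular antagonists, gremlin and noggin lay on opposite sides. Grem1, which binds BMP2 and BMP4 and keeps them from their receptors, had 665 reads in the control cells and 1206 in the MALAT1-knockdown cells, or 11.5 and 19.4 CPM. The difference of 0.75 in log2 (0.61 to 0.89, exact binomial test, adjusted p = 5.69e-27), or 1.68-fold, was the highest among the tested members. Grem1 lies at chr2:113746164-113758646 on the minus strand (GRCm38) with no overlapping gene. Relative to its ligand gene Bmp4, per kilobase, Grem1 went from 0.184 to 0.289, a log2 change of 0.65 (0.48 to 0.81). This pair too was chosen after its values were seen. The adjacent genes Fmn1 and Scg5 had log2 fold changes of 0.36 and, on 4 and 6 reads, 0.42, and those next to Inhba, Gli3 and Sugct, 0.51 and -0.62.

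Nog, which encodes noggin, had 9 reads in the control cells and 1 in the knockdown cells. Its sum sits exactly at the minimum for testing, and the CPM ratio of 0.103 has a log2 interval from -8.73 to -0.43. The gene lies at chr11:89300638-89302332 on the minus strand (GRCm38) with no overlapping gene, and the adjacent Dgke and Pctp had log2 fold changes of 0.17 and -0.076. Fst encodes follistatin, which binds activins with high affinity. It had 3790 and 4404 reads, a log2 fold change of 0.11 (0.047 to 0.17). Relative to Inhba, in a pair that was not planned, Fst went from 38.7 to 26.5 per kilobase, a log2 change of -0.54 (-0.79 to -0.30). Fstl3, a follistatin relative, had 15 and 23 reads and did not pass the test at a log2 fold change of 0.49 (-0.49 to 1.55).

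The type I receptors, which phosphorylate Smads, were higher or did not pass the test. Tgfbr1, the TGF-β type I receptor, had 3997 and 4992 reads, a log2 fold change of 0.21 (0.15 to 0.27). Acvr1 and Bmpr1a, type I receptors of the BMP branch, had 2042 and 2513 reads and 7683 and 8969 reads, with log2 fold changes of 0.19 (0.11 to 0.28) and 0.12 (0.073 to 0.16). Acvr1b, the activin type I receptor, had 3030 and 3085 reads and did not pass the test (log2 fold change -0.081, exact binomial adjusted p = 0.0593). Acvrl1, known mainly from endothelium, had 13 and 11 reads and did not pass the test either (log2 fold change -0.34, -1.65 to 0.93).

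The type II receptors split. Tgfbr2, which binds TGF-β first and recruits Tgfbr1, had 35893 reads in the control cells and 33586 in the knockdown cells, a log2 fold change of -0.20 (-0.22 to -0.18). Its partner Tgfbr1 was higher, so the ratio of Tgfbr1 to Tgfbr2 per kilobase went from 0.157 to 0.209, a log2 change of 0.42 (0.35 to 0.48), in a pair chosen after its values were seen. Acvr2b, an activin and myostatin receptor, had 814 and 649 reads, a log2 fold change of -0.43 (-0.58 to -0.28). Acvr2a, its close relative, had 586 and 625 reads and did not pass the test at -0.014, a value whose sign turned when library totals were used for scaling. Bmpr2, the BMP type II receptor, had 6733 and 8129 reads, a log2 fold change of 0.17 (0.12 to 0.21). Tgfbr3, the co-receptor betaglycan, had 10000 and 10771 reads and a log2 fold change of 0.00059, which did not pass the test.

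**Figure D3:**
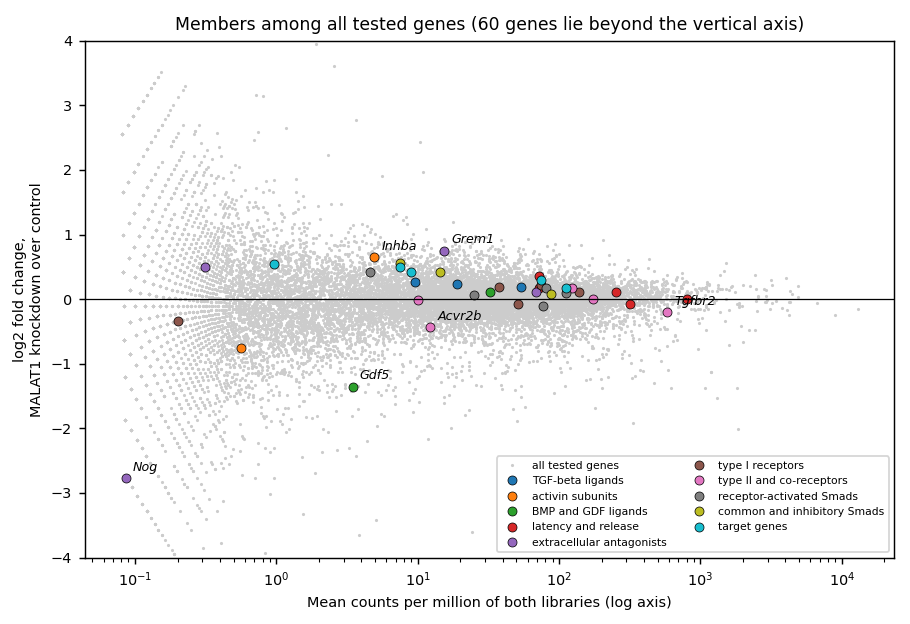
Log2 fold change (MALAT1 knockdown minus control) against the mean CPM of both libraries on a log axis, for all tested genes in grey with the members on top, coloured by role. The members lie within the cloud of all genes, 60 genes fall outside the vertical range shown, and Gdf5, Grem1 and Inhba are the called members farthest from 0 apart from Nog at the low end.

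Among the receptor-activated Smads the pair that carries the TGF-β signal went in opposite directions. Smad2 had 4567 and 4594 reads, a log2 fold change of -0.098 (-0.16 to -0.039), and Smad3 had 4370 and 5311 reads, a log2 fold change of 0.17 (0.12 to 0.23). Smad3, which binds DNA directly, made up 60.3% of their summed reads per kilobase in the control cells and 64.8% in the knockdown cells. The summed reads of both were 8937 and 9905, a log2 fold change of 0.042. Of the BMP Smads, Smad5 had 6224 and 7144 reads (log2 fold change 0.092, 0.043 to 0.14) and Smad9 had 227 and 327 (0.42, 0.17 to 0.67), whereas Smad1, at 1414 and 1590 reads, did not pass the test (0.063). Smad9 was also the least abundant, at 0.733 and 0.981 RPKM beside 16.4 and 17.5 RPKM for Smad5.

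The Smads downstream of this step were higher. Smad4, the common partner, had 4947 and 5657 reads, a log2 fold change of 0.087 (0.032 to 0.14). Smad6, an inhibitor chiefly of the BMP branch, had 704 and 1016 reads, a log2 fold change of 0.42 (0.28 to 0.56). Smad7, which inhibits both branches, had 349 and 554 reads, a log2 fold change of 0.56 (0.36 to 0.76). At 1.47-fold, Smad7 lay just under the 1.5-fold threshold.

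The inhibitors of differentiation, Id1 to Id4, are helix-loop-helix proteins without a DNA-binding region, and their genes are well-known direct targets of BMP Smads. Id1 had 6090 reads in the control cells and 7390 in the knockdown cells, a log2 fold change of 0.17 (0.12 to 0.22). Id3 had 3876 and 5139, a log2 fold change of 0.30 (0.24 to 0.36). Id2 had 355 and 542, a log2 fold change of 0.50 (0.31 to 0.70). Id4 had 45 and 71 reads, and its 0.55 (-0.0075 to 1.12) did not pass the test (exact binomial adjusted p = 0.0941). The Id genes with the fewest reads thus had the greatest log2 values, and per kilobase Id1 (91.0 and 103 RPKM) and Id3 (52.6 and 64.7 RPKM) remained far above Id2 (3.12 and 4.43 RPKM) and Id4 (0.203 and 0.297 RPKM). Tgfbi, a matrix protein named for its induction by TGF-β, had 443 and 640 reads, a log2 fold change of 0.42 (0.25 to 0.60).

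Id1 to Id4, Smad6 and Smad7, the feedback and target genes put together after the values were seen, were 6 of 6 above 0, 5 of them higher without a fold threshold, where 24.6% of all tested genes were, with a median of 0.46. Of 10 tested BMP targets that are not members, 2 were higher and 1 lower without a fold threshold, beside a background of 24.6% and 24.1%, and their median was 0.011.

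Promoters of these targets are shown because BMP Smads are known to bind GC-rich sites and Smad3 and Smad4 a palindrome in such regions. RefSeq promoters (GRCm38.p6, 250 bases before the annotated start to 50 after it) matched 30 of the 43 members, 28 of them tested. Id1 and Smad7 were not among the matched members, so their promoters were not searched. They were searched on both strands for the Smad palindrome GTCTAGAC, for the Smad box CAGACA, for the GC-rich site GGCGCC, for the related site GGAGCC and for the E-box CACGTG. The core GTCT, which equals AGAC on the other strand and lies inside the palindrome, was searched too. Printed below are the 250 bases before the start and the first 10 from it, 5′ to 3′ on the gene's strand, with every match except the core in capitals. GGCTCC is the related site read on the other strand. Smad6 was added after the search was seen.
Id2, chr12:25096083-25096342, minus strand: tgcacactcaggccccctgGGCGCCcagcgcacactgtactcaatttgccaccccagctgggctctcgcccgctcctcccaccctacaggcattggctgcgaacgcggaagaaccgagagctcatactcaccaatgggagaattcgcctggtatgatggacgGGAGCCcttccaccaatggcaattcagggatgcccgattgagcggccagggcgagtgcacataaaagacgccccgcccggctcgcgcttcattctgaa
Id3, chr4:136143572-136143831, plus strand: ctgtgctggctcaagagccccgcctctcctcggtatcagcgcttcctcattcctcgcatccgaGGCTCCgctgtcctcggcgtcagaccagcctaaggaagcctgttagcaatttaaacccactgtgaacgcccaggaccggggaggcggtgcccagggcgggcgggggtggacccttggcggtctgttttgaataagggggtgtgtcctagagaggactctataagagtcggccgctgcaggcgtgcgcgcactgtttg
Id4, chr13:48260866-48261125, plus strand: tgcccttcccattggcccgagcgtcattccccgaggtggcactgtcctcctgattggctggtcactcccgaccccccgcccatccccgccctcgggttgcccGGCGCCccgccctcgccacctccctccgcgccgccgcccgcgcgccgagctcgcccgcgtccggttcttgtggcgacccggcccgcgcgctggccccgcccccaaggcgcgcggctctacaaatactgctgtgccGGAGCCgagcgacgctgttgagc
Smad6, chr9:64022050-64022309, minus strand: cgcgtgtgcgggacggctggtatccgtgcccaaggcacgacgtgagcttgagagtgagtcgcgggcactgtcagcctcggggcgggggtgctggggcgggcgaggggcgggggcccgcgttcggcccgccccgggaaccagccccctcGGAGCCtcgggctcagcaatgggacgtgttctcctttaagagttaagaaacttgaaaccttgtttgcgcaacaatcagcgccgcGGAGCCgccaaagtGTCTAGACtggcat

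In Id2 and Id4, GGCGCC begins 231 and 148 bases before the start. Id3 holds GGAGCC on the other strand, beginning 187 bases before the start, and no GGCGCC. Smad6 holds the palindrome GTCTAGAC across its start, found in 0.213% of all 32851 promoters and in 1 of the 28 member promoters. GGCGCC was found in 10 of 28 member promoters, against 11.9% of all promoters, and GGAGCC in 15 of 28, against 30.8%. The member promoters also had more G and C, with a median of 64.7% against 52.7% for all, and the part of that in these shares was not tested. CAGACA was in 3 of 28 against 21.0%, CACGTG in 3 of 28 against 7.15%, and GTCT in 23 of 28 against 88.0%. Higher members with no GGCGCC, such as Smad6 and Id3, and lower members with GGAGCC, such as Acvr2b and Tgfbr2, both occurred. These are matches of letters and not binding sites.

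Beyond the members, 147 other genes of the pathway were listed by role, and 113 of them were tested. Their median log2 fold change was 0.071. Without a fold threshold 51 were higher (45.1%) and 23 lower (20.4%), against the background of 24.6% and 24.1%. That background was not matched for abundance, and it was 35.3% and 30.2% among genes with a mean of at least 1000 counts. At 1.5-fold 3 were higher (2.65%) and 5 lower (4.42%), below the 4.68% and 7.45% of all tested genes. Those shares lay above the 1.43% and 2.84% among genes with a mean of at least 1000 counts, and neither background was matched to the list. The TGF-β targets leaned upward without a fold threshold, with 14 of 25 higher (56%), 4 lower (16%) and a median of 0.14. Col1a2, a collagen chain, had 264064 and 328873 reads (log2 fold change 0.21), and Cdh2, N-cadherin, had 11773 and 16240 (0.36). Ctgf, connective tissue growth factor, had 1159 and 1490 (0.26, 0.14 to 0.37). Several of these targets, such as Col1a1, Col1a2 and Vim, also stand in the progenitor marker list above.

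Of 17 tested genes listed around the activation of latent TGF-β, 10 were higher (58.8%) and 2 lower (11.8%) without a fold threshold (median 0.18). Not all of them are activators. The matrix and anchoring proteins Emilin1 (0.28), Fbn1 (0.26), Fbn2 (-0.074) and Lrrc32 (-0.10, not passing the test) were listed too, so the count is no measure of activation. Among all tested genes the shares were 24.6% and 24.1%, and among those with a mean of at least 1000 counts 35.3% and 30.2%. Itgav, the integrin αv chain, had 9618 and 12465 reads (log2 fold change 0.27), whereas Thbs1, thrombospondin, was among the lower with 9744 and 9405 (-0.16). The 33 intracellular regulators held 14 higher (42.4%) and 7 lower (21.2%), with a median of 0.030. Among them the corepressor Tgif1 had 1467 and 1866 reads (0.24) and the ubiquitin ligase Smurf2 6183 and 5882 (-0.18). Of 6 tested other ligands, 2 were higher (33.3%) and 1 lower (16.7%).

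Of the 8 calls at 1.5-fold among the other pathway genes, 7 stood in the receptor and co-receptor list or the antagonist list. Of 9 tested receptors and co-receptors, 1 was higher (11.1%) and 2 lower (22.2%). Of 13 tested antagonists, 1 was higher (7.69%) and 3 lower (23.1%). The shares of all tested genes were 4.68% and 7.45%. Acvr1c, the receptor ALK7 known from mature adipocytes, had 161 reads in the control cells and 48 in the knockdown cells, a log2 fold change of -1.84 (-2.35 to -1.38). Mcam, the adhesion molecule CD146, had 3233 and 1385 reads, a log2 fold change of -1.33 (-1.42 to -1.24). Eng, the TGF-β co-receptor endoglin, was higher without a fold threshold, with 2864 and 3930 reads (0.35, 0.28 to 0.42). Of 13 tested other antagonists, 5 were higher (38.5%) and 6 lower (46.2%) without a fold threshold, beside 24.6% and 24.1% of all tested genes. Chrd, encoding chordin, had 593 and 397 reads (-0.68, -0.87 to -0.50), Dcn, encoding the proteoglycan decorin, had 2247 and 1315 (-0.88, -0.98 to -0.78) and Sostdc1, a BMP and Wnt antagonist, had 39 and 14 (-1.55, -2.58 to -0.67). Amhr2, a receptor of anti-Müllerian hormone, and the ligand Bmp15 were also called, on 4 and 16 reads and on 1 and 10 reads.

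**Figure D4:**
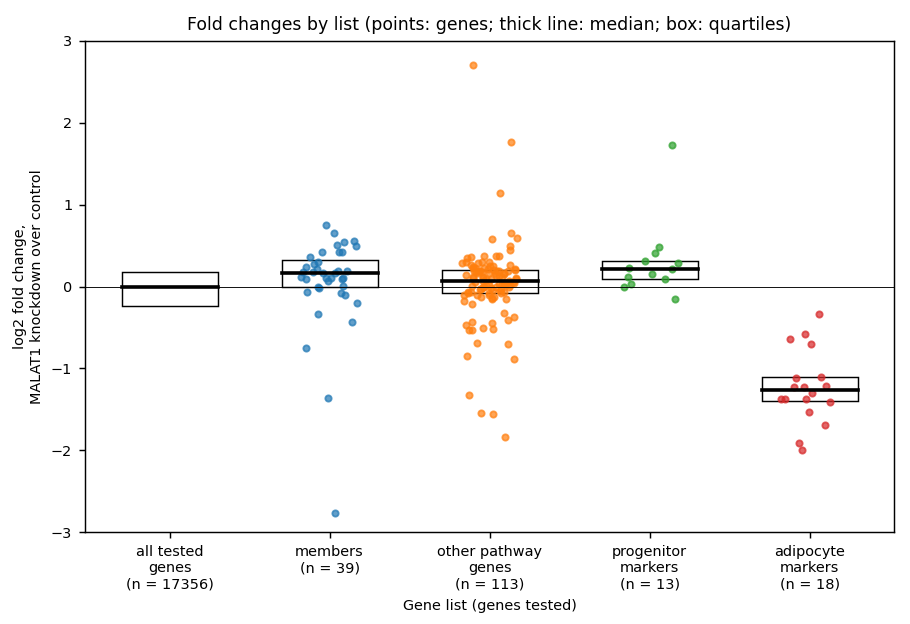
Log2 fold changes (MALAT1 knockdown minus control) of the members, the other pathway genes and the progenitor and adipocyte markers, with 1 point per tested gene, a thick line at the median and a box over the quartiles. All tested genes are shown by their median (-0.0031) and quartiles (-0.23 to 0.18) alone. The medians of the members (0.17), the other pathway genes (0.071) and the progenitor markers (0.21) lie slightly above 0, and that of the adipocyte markers (-1.27) lies below.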

How the data were processed

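Total RNA was depleted of rRNA and sequenced from a directional kit, and the authors deposited raw counts per gene for 1 control and 1 knockdown library. The submitters' processing notes name HISAT2 and GRCm38. The counting tool, the annotation, the strand setting and the handling of multi-mapped and duplicate reads are not given in the sources used here. No other measurements of the study were analysed here.

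TMM factors from edgeR 4.0.16 in R 4.3.3 (0.992 and 1.01) were applied to the deposited counts, and log2 fold changes used a prior count of 0.5. Of 46095 genes, 17356 had at least 10 summed counts. The split of each gene's reads was compared with that of the scaled library sizes by an exact binomial test (scipy 1.17.1, two-sided, Benjamini-Hochberg adjusted), and calls needed an adjusted p under 0.05 and a fold of at least 2 or 1.5. Intervals are Clopper-Pearson at 95%, except for ratios of gene pairs, where a normal approximation on the log scale was used. A count of 0 allows up to 3 counts, or 0.0520 CPM for control and 0.0483 CPM for knockdown. RPKM used the longest GENCODE M21 protein-coding transcript.

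Alternatives were library totals, upper-quartile scaling, DESeq2 1.42.0 size factors, other filters, a prior count of 2, counts divided by 4, and edgeR exact tests with preset variation.

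Counts were simulated for 17385 genes with counting error alone, and changes were placed only in genes well above the minimum for testing. Of the changed genes, 99 of 100 at 1.8-fold and 100 of 100 at 3-fold were called at 1.5-fold, 0 with the wrong sign. In the same simulation 3 unchanged genes were called. Variation between cultures, and changed genes with few reads such as Nog, were not covered. The members and lists were chosen with earlier results of these data known. Every tested member is given by role, with the adjacent and overlapping genes of those called at 1.5-fold. Of the other listed genes, those called at 1.5-fold are named except for a result not reported here, and others named were chosen after their values were seen.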

Additional observations from a re-analysis of the deposited data

How the results depend on the processing

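No paired analysis was possible because each group had 1 library, and no replicate could be left out. Members called at 2-fold were 2, and 1 with a filter of 10 counts in each library, 1 with counts divided by 4, 1 with a preset coefficient of variation of 0.1, and 0 with 0.2 and 0 with 0.4. Of all tested genes, 1162 of 17356 were called at 2-fold in the main setting. With the other settings in the same order, these were 572 of 15342, 264 of 14736, and 667, 117 and 1 of 17356. Members called at 1.5-fold were 4, and 2, 0 and 0 with the preset variation of 0.1, 0.2 and 0.4. Of all 17356 tested genes, 2105 were called at 1.5-fold, and 1079, 117 and 1 with that preset variation. With counts divided by 4, 764 of 14736 genes were called at 1.5-fold. Without a fold threshold, members called were 30, and 18 with counts divided by 4 (15 higher and 3 lower), 2 with a preset variation of 0.1, 0 with 0.2 and 0 with 0.4. Other pathway genes called at 1.5-fold were 8, and 4 with counts divided by 4, then 5, 1 and 0 with preset variation. An unadjusted p under 0.05 was reached by 7, 2 and 0 members at the preset 0.1, 0.2 and 0.4, which was not counted over all tested genes. Acvr2a, at -0.014, was 0.0084 with library totals. The members' median lay between 0.165 and 0.187 over the other scalings, filters and prior counts, where the median of all tested genes moved from -0.0031 to 0.0190 with library totals. Calls below 10 counts in 1 library, such as Nog, rest on few reads, and with 1 culture per condition the calls stand only as differences between the libraries.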
